A study of Mus musculus with 4 samples.

Results

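The small leucine-rich proteoglycans are secreted matrix proteins built around a curved array of leucine-rich repeats. They were studied here as 9 genes, Lum, Dcn, Bgn, Fmod, Ogn, Prelp, Aspn, Omd and Podn, chosen by name and read out through probes whose RefSeq accession belongs to one of them. Of 21154 genes with a matched probe these are 8, since no probe was matched to Prelp, and each of the 8 was read by 1 probe. The arrays compare adult with embryonic thymospheres, which are free-floating cell aggregates grown from digested mouse thymus in dishes that do not let cells attach. Adult spheres came from mice 5 to 6 weeks old and embryonic spheres from embryos of day 14.5, both of strain C57Bl6/N, and both grew for 7 days in the same medium with B27, hydrocortisone, insulin, EGF and bFGF. Each group had 2 samples, each on its own 1-colour Agilent array of 1 slide, and the labels do not say how many animals stood behind a sample or which replicates were technical. The p-values therefore measure only the spread between these samples.

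Members of this family bind fibrillar collagen and influence how its fibrils form and how thick they grow. Class I members such as decorin and biglycan carry chondroitin or dermatan sulfate chains, while class II members such as lumican and fibromodulin can carry keratan sulfate. Several also bind growth factors or receptors, TGF-beta and EGF receptor for decorin and Toll-like receptors for free biglycan. In most organs fibroblasts and other mesenchymal cells are their main source. Several of the genes lie side by side in the genome. In the RefSeq annotation Dcn, Lum, Kera and Epyc follow each other with 0 other protein-coding genes between them, as do Ecm2, Aspn, Omd and Ogn, and Optc, Prelp and Fmod.

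RefSeq promoter sequences of GRCm38.p6, from 250 bases before to 50 bases after the annotated start, were available for 7 of the 9 members, but not for Lum and Dcn. They are shown for 4 members that stand for the patterns described below, namely Podn and Ogn, whose signals were lower in adult spheres, Bgn, whose groups overlapped, and Fmod, whose signals were higher. Ogn and Fmod entered no test. Ogn was well above background on embryonic array 1 alone, and the Fmod spot of adult array 2 was marked as an outlier. Capitals mark matches on either strand to the TATA box letters TATAAA, the CCAAT box, the GC box letters GGGCGG or the AP-1 letters TGACTCA, and each sequence reads along the gene. Podn has 2 annotated starts, at chr4:108031905-108032204 and chr4:108030937-108031236, both on the minus strand. Ogn lies at chr13:49607765-49608064, Bgn at chrX:73483351-73483650 and Fmod at chr1:134037004-134037303, all on the plus strand.
Podn, first entry: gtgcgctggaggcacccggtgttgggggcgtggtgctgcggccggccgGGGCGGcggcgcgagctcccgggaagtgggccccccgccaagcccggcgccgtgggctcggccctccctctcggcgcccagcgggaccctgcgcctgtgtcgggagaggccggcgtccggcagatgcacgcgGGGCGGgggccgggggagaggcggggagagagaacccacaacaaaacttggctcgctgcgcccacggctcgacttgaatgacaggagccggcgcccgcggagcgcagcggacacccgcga
Podn, second entry: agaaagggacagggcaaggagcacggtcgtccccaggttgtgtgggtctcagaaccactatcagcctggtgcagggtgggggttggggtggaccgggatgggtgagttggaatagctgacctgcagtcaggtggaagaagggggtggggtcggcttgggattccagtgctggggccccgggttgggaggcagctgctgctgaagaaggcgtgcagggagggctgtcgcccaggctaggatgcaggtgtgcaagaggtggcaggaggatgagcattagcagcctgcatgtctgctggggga
Ogn: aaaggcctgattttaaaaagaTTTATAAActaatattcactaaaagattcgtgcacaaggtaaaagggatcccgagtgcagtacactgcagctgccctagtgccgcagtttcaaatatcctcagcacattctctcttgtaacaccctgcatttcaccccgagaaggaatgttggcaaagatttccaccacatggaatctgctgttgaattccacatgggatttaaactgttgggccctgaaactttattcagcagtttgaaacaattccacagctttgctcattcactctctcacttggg
Bgn: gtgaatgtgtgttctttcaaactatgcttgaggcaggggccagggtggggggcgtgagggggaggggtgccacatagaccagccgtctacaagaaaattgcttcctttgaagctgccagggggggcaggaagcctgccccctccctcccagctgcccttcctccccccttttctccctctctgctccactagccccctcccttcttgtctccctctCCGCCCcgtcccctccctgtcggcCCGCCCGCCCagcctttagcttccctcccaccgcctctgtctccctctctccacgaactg
Fmod: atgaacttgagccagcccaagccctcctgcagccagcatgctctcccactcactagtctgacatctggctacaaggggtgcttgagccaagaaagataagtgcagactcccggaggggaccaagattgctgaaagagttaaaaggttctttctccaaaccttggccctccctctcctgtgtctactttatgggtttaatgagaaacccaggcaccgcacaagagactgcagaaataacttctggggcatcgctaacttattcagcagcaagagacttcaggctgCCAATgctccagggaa

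GC made up 77.0% and 63.0% of the Podn windows, 42.3% of the Ogn window, 63.7% of the Bgn window and 51.0% of the Fmod window, against a median of 52.7% over 32851 promoters. The GC box occurred 2 times in the first Podn window and 3 times in that of Bgn, and 35.7% of all promoters hold it. The Ogn window holds 2 TATAAA matches, which overlap on opposite strands, and 13.6% of all promoters hold this motif. Fmod had 1 CCAAT match, a motif of 37.4% of promoters. The AP-1 letters occurred in none of the members' windows and in 5.20% of all promoters. A match is a description of letters and not a binding site.

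Signal was taken relative to each array's 75th percentile, which was 132 and 66.0 intensity units on adult arrays 1 and 2 and 126 and 61.5 on embryonic arrays 1 and 2. Spots well above background made up 71.6% and 49.6% of the adult arrays and 48.3% and 35.7% of the embryonic arrays. Feature Extraction marked 2756 spots of adult array 2 as outliers, compared with 185 of adult array 1, and 120 and 95 of embryonic arrays 1 and 2. Dim probes also differed between groups, since 51.4% and 23.2% of 1507 sensory receptor probes were well above background on adult arrays, against 6.10% and 2.26% on embryonic arrays. All 10 listed fibroblast genes were seen well above background on every array, and so were 9 of 10 epithelial genes. The number of arrays limits the precision, and the groups' places on the slide and the groups cannot be told apart.

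Lumican and podocan transcripts were lower in adult than in embryonic thymospheres, while decorin and biglycan did not pass the test. Lum was 5.53-fold lower in adult spheres and Podn 3.90-fold lower. Of the 9 members, 4 were tested, which asks that the 2 arrays of a group, adult or embryonic, both see the probe well above background. In limma with Benjamini-Hochberg adjustment over 13667 genes 2 members were called lower and 0 higher in adult spheres at an adjusted p below 0.05. Among all 13667 genes the share called was 53.5%, with 36.1% lower and 17.5% higher, so 2 calls among 4 genes is a share close to the background. At an unadjusted p below 0.05 the counts were the same, 2 lower and 0 higher. The median log2 fold change was -1.06 over the 4 members and -0.79 over all genes tested. Relative to that median of all genes Lum stood at -1.67, Podn at -1.17, Dcn at 0.65 and Bgn at 0.78. Podn passed the filter through its embryonic arrays alone, which by itself favours a lower adult value.

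**Figure D1:**
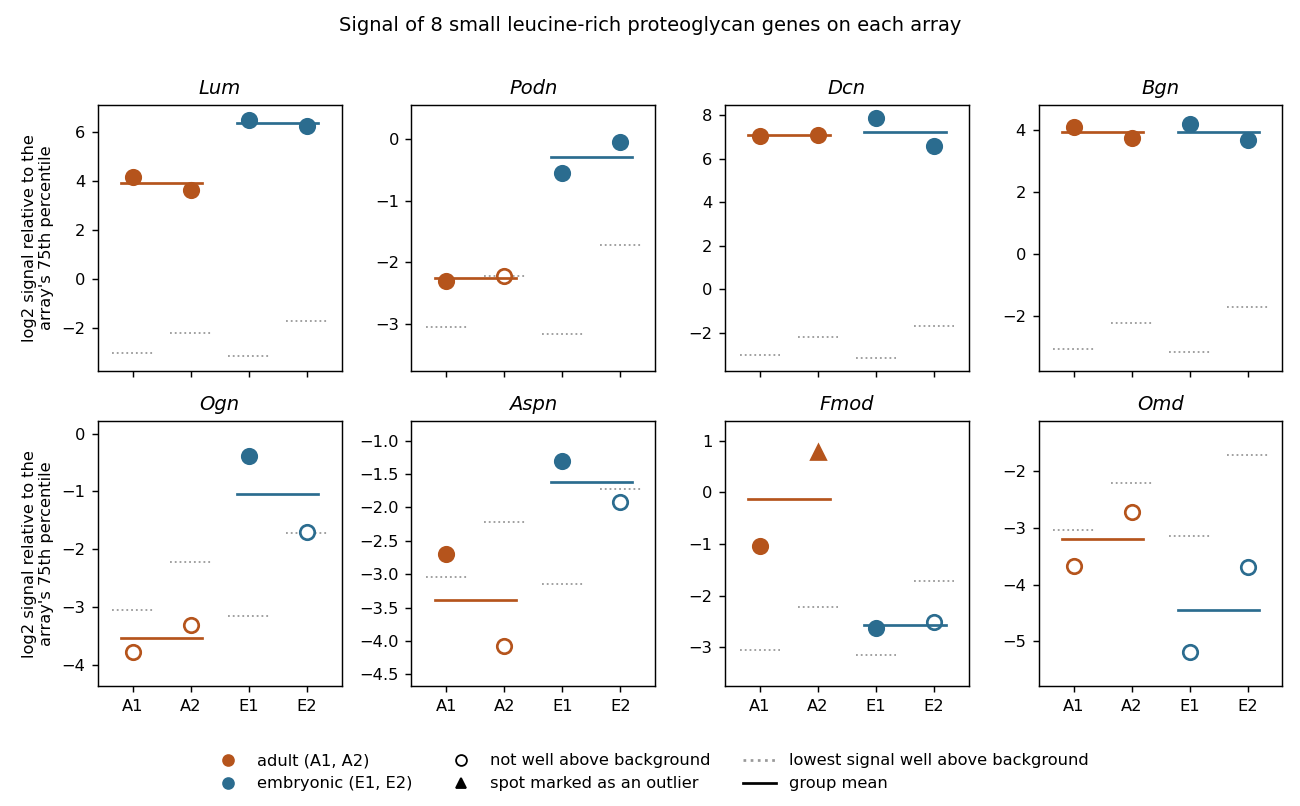
Log2 signal relative to the array's 75th percentile (y axis) of the 8 genes with a probe on adult arrays 1 and 2 (A1, A2) and embryonic arrays 1 and 2 (E1, E2). Points are arrays, solid lines group means, dotted lines the lowest signal called well above background, open points signals not well above background, and the triangle is the Fmod spot marked as an outlier. Both adult Lum values lie below both embryonic ones, far above the dotted lines, while Dcn and Bgn overlap.

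Lum encodes lumican, a keratan sulfate proteoglycan of class II that is needed for regular collagen fibrils in cornea and skin. Its signal was 17.7 and 12.5 times the 75th percentile on adult arrays 1 and 2, against 89.6 and 75.3 times on embryonic arrays 1 and 2. Both adult values were thus far below both embryonic ones, and all 4 were well above background. The log2 fold change was -2.47 (SE 0.34, 95% confidence interval -3.32 to -1.61, limma, adjusted p = 0.0086). Only 3.12% of the tested genes had a fold change as low or lower. Leaving out either of the adult arrays ended every call over the genes tested (0 called), and Lum then stood at -2.72 without adult array 1 (adjusted p = 0.0771) and at -2.22 without adult array 2 (adjusted p = 0.0905). Those fits took the single adult array to vary like the embryonic ones, and 6455 and 5528 genes had an unadjusted p below 0.05 in them.

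Dcn encodes decorin, the class I proteoglycan with a lone chondroitin or dermatan sulfate chain, and is the direct neighbour of Lum. Its signal was 134 and 136 times the 75th percentile on the adult arrays, against 233 and 95.6 times on the embryonic arrays. The adult values lay between the embryonic ones. The log2 fold change was -0.15 with a 95% confidence interval from -1.37 to 1.07 (SE 0.49, limma, adjusted p = 0.805), a range that includes a change of more than 2-fold either way. The missed threshold does not show that the levels were alike.

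Bgn encodes biglycan, the class I relative of decorin that is found around cells and in bone, cartilage and vessel walls. It stood at 17.1 and 13.4 times the 75th percentile on the adult arrays, against 18.2 and 12.8 times on the embryonic arrays. The groups overlapped, and array 1 was the higher of the pair in both. The log2 fold change was -0.013 with a 95% confidence interval from -0.89 to 0.86 (SE 0.35, limma, adjusted p = 0.976). The signs for Dcn and Bgn rest on the scaling. After centring on the tested genes they were 0.51 and 0.64, neither called, and in the deposited values they were 0.92 and 0.82, both called higher in adult spheres (adjusted p = 0.0294 and 0.0434). Centred on the median of all probes they were -1.33 and -1.20 and both called lower (adjusted p = 0.031 and 0.034).

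Podn encodes podocan, a class V member first described in the kidney glomerulus. Its signal was 0.202 and 0.216 times the 75th percentile on the adult arrays, against 0.686 and 0.965 times on the embryonic arrays. All 4 values were low, and the second adult array was not well above background. The log2 fold change was -1.96 (SE 0.33, 95% confidence interval -2.80 to -1.13, limma, adjusted p = 0.0111), and 7.58% of tested genes were as low or lower. With normexp background correction it was -0.68 and no longer called (adjusted p = 0.0821). Without adult array 1 or adult array 2 it was -1.92 (adjusted p = 0.0771) and -2.01 (adjusted p = 0.0912).

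**Figure D2:**
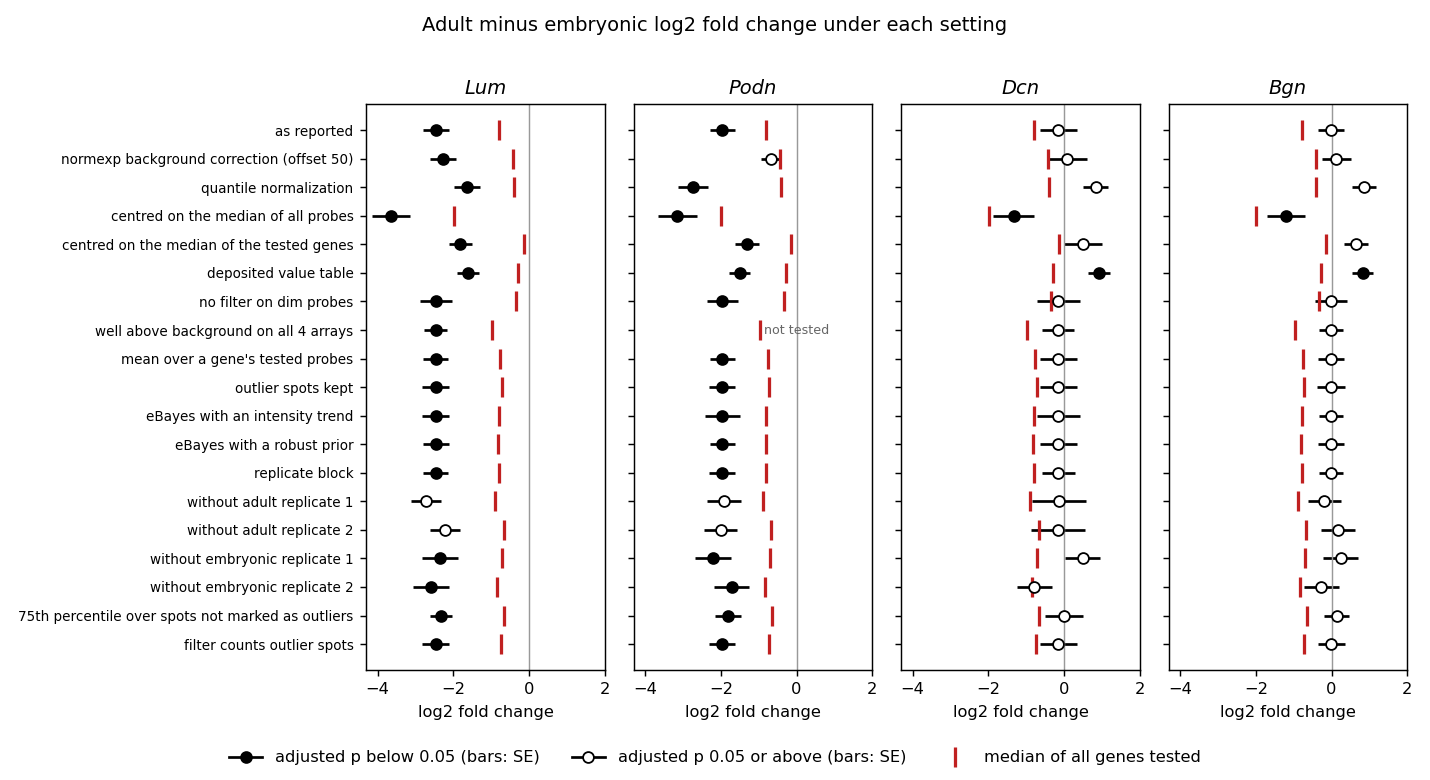
Adult minus embryonic log2 fold change (x axis) of Lum, Podn, Dcn and Bgn under each processing setting (rows), with standard errors as bars and filled points for an adjusted p below 0.05. Red ticks mark the median of all genes tested under the same setting. Lum lay between -3.65 and -1.62 over the settings that keep all arrays, and the points for Dcn and Bgn lie on both sides of 0.

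The difference between the members can be read without any scaling of the arrays by taking 1 member minus another within each array. Such a difference is no ratio of transcript levels, because probes differ in brightness, but its change between groups does not depend on a factor per array. Lum minus Bgn was 0.046 and -0.10 log2 units on adult arrays 1 and 2, against 2.30 and 2.55 on embryonic arrays 1 and 2. The groups thus lay 2.45 log2 units apart (adult minus embryonic -2.45), while arrays of a group differed by 0.15 and 0.25. Lum minus its neighbour Dcn was -2.92 and -3.44 on adult arrays, against -1.38 and -0.34 on embryonic arrays, a difference of -2.32. Here the arrays of a group were 0.52 and 1.04 apart. Bgn minus Dcn was -2.97 and -3.34 on adult arrays, against -3.68 and -2.90 on embryonic arrays, and the groups overlapped. Podn minus Bgn differed by -1.95, with 0.44 and 1.00 between the arrays of a group. Lum minus Podn, the pair that was called, was 6.45 and 5.86 on adult arrays, against 7.03 and 6.29 on embryonic arrays, and the groups overlapped. An exact permutation of 2 against 2 arrays cannot give a two-sided p below 0.333, so these differences carry no test.

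**Figure D3:**
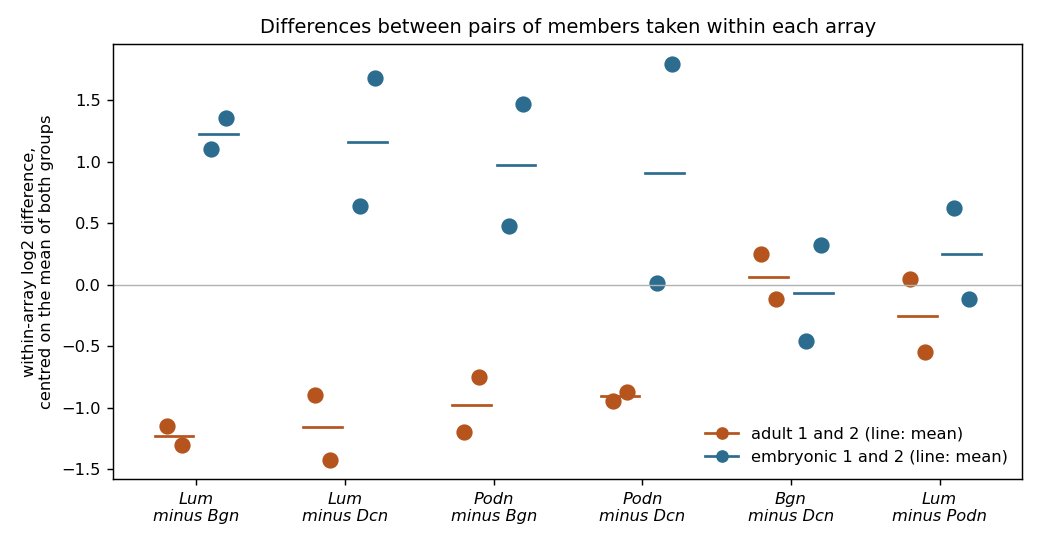
Differences between pairs of members within each array in log2 units (y axis), each pair centred on the mean of its group means, for adult arrays 1 and 2 and embryonic arrays 1 and 2, with lines at group means. Lum minus Bgn separates the groups by 2.45 log2 units, and Bgn minus Dcn overlaps.

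The other 4 members with a probe were near or below the detection limit in at least 1 group and entered no test. Ogn, which encodes the class III member osteoglycin or mimecan, had 0.0733 and 0.101 times the 75th percentile on the adult arrays, against 0.768 and 0.307 times on the embryonic arrays. Only embryonic array 1 was well above background for it. As embryonic array 2 did not see Ogn well above background, no lower bound on its fold was taken. Aspn encodes asporin, a class I member without glycosaminoglycan chain that binds TGF-beta. It had 0.154 and 0.0591 times the 75th percentile on adult arrays, against 0.405 and 0.264 on embryonic arrays, and was well above background on array 1 of each group. With no filter on dim probes Ogn changed by -2.49 (SE 0.59, adjusted p = 0.0535) and Aspn by -1.78 (SE 0.61, adjusted p = 0.098), and neither passed the test.

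Fmod, the gene of fibromodulin, a class II member that binds collagen and guides its cross-linking by lysyl oxidase, ran the other way. It had 0.486 and 1.72 times the 75th percentile on the adult arrays, against 0.162 and 0.175 times on the embryonic arrays, both adult values being the higher. The spot on adult array 2 was marked as an outlier and was left out, so Fmod missed the filter, and embryonic array 2 was not well above background. With outlier spots kept, Fmod entered the test through the adult arrays, on which it was high, so its call there was favoured by the filter (log2 fold change 2.44, SE 0.64, adjusted p = 0.0268). With that spot left out and no filter on dim probes, Fmod changed by 1.53, a value that rests on adult array 1 alone for its group. The sensory receptor probes were higher on adult arrays too, and their part in this difference was not tested. Omd, which encodes osteomodulin of bone and dentine, was not well above background on any array, with 0.0785 and 0.152 times the 75th percentile on adult arrays, against 0.0273 and 0.0772 times on embryonic arrays.

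Over the 8 genes measured, Lum, Podn, Ogn and Aspn had both adult values below both embryonic ones, Fmod and Omd had both above, and Dcn and Bgn overlapped. Among the genes tested, 84.1% had groups that did not overlap. Signals not well above background have no order, so the place of Omd in this count says little. The same holds in part for Ogn, seen well above background on embryonic array 1 alone, and for Aspn, seen on array 1 of each group. The place of Fmod uses the outlier spot of adult array 2. Ecm2, next to Aspn and a class I relative, was well above background on embryonic array 1 alone. Kera, the gene of keratocan next to Lum, was read by 10 spots of 1 probe. All 10 spots were well above background on embryonic array 1, with signals of 65.7 to 88.9 intensity units, against none of 10 on embryonic array 2, with 5.17 to 19.3. On the adult arrays 3 and 1 of the 10 spots were so, and 3 spots of adult array 2 were marked as outliers. Kera was not well above background on embryonic array 2, so no lower bound on its fold was taken. With no filter on dim probes it was not called (log2 fold change -2.26, SE 0.67, adjusted p = 0.0749).

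Of 10 further family genes, all with a probe, Tsku and Chadl were tested and neither was called. Tsku, for the class IV member tsukushi, had 0.424 and 0.559 times the 75th percentile on adult arrays, against 0.691 and 0.605 on embryonic arrays (log2 fold change -0.41, SE 0.33, adjusted p = 0.309). Chadl, for chondroadherin-like protein, changed by 0.20 (SE 0.71, adjusted p = 0.821). Podnl1, the close relative of Podn, ran opposite to it. It had 0.781 times the 75th percentile on adult array 1 and 1.70 times on adult array 2, a spot marked as an outlier, against 0.0835 and 0.0685 times on the embryonic arrays, where it was not well above background. Taken from adult array 1 alone, Podnl1 was higher by at least 4.22-fold, without a test. Nepn, Epyc and Nyx were well above background on adult array 1 alone, Chad on array 1 of both groups and Optc on no array.

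The genes whose profiles over the 4 arrays lay closest to a member were found among 9626 genes well above background on all 4 arrays, as the smallest distance between log2 values centred on each gene's mean. For Lum these were B4galt4 (distance 0.133 log2 units), Zfp618 (0.14) and Rdm1 (0.174). For Dcn they were Flywch2 (0.13), Tmem205 (0.136) and Sdf2l1 (0.143), and for Bgn Gstp1 (0.0495), Gm35257 (0.0738) and Tmed3 (0.0743). The distances rest on 4 arrays and are a description only.

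Enzymes that build the chains of these proteoglycans were called in both directions. Of 22 listed genes for the linker and for chondroitin and dermatan sulfate, 18 were tested, with 6 lower and 2 higher in adult spheres and a median log2 fold change of -0.76 beside -0.79 over all genes. These counts are near the shares of all genes tested, 36.1% lower and 17.5% higher. Chst15, a sulfotransferase of chondroitin chains, fell by 2.00 (SE 0.30, adjusted p = 0.00925) and kept its call under 5 other scalings. Fam20b, the kinase that phosphorylates the linker xylose, fell by 2.05 (SE 0.41), Xylt2, which adds that xylose, fell by 1.44 (SE 0.35), and Chst14, a dermatan sulfotransferase, fell by 1.28 (SE 0.32). These 3 kept their call in 3 of the 5 scalings each. Chst11, a chondroitin sulfotransferase, rose by 1.37 (SE 0.39, adjusted p = 0.0337), and B4galt7, the first linker galactosyltransferase, by 1.45 (SE 0.41, adjusted p = 0.04), fitted on adult array 1 alone for that group. The sign of B4galt7 turned to -0.075 after centring on the median of all probes.

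Of 8 keratan sulfate genes, all tested, 3 were lower and 2 higher in adult spheres, with a median of -0.39, and 5 calls among 8 genes is a share near the 53.5% of all genes. B4galt4, a galactosyltransferase of keratan sulfate, had -0.77 and -1.36 log2 units on adult arrays, against 1.54 and 1.15 on embryonic arrays (log2 fold change -2.41, SE 0.37, adjusted p = 0.00947), without overlap. Chst1, the keratan sulfate galactose sulfotransferase, fell by 1.45 (SE 0.30) and B4galt1 fell by 1.18 (SE 0.31), each called in 2 of the 5 other scalings. The adult signal of B3gnt7, which extends the keratan sulfate backbone, was higher by at least 4.56-fold (adjusted p = 0.00911) and that of Chst4, a sulfotransferase of N-acetylglucosamine, by at least 2.43-fold (adjusted p = 0.0136). Neither was well above background on an embryonic array, so both were tested only through the adult arrays on which they were high, and normexp correction ended both calls. These bounds hold for the scaling as reported only. Over the 5 other scalings the log2 fold changes went down to 1.00 for B3gnt7 and 0.63 for Chst4, which are folds below the bounds.

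Fibril-forming collagens and cross-linking enzymes, the partners of the family, mostly did not pass the test. Of 19 listed genes 17 were tested, with 1 higher, 0 lower and a median of -0.26. At an unadjusted p below 0.05 in limma 0 were lower. Beside the calls of this list and of the proteases, 36.1% of all genes tested were called lower and 17.5% higher. Col14a1, for a fibril-associated collagen, was the 1 higher gene (log2 fold change 2.17, SE 0.41, adjusted p = 0.0169), fitted on adult array 1 alone for that group because its spot on adult array 2 was marked as an outlier. As for B4galt7, the spread in this fit came from the embryonic arrays and the prior over all genes. Col1a1, the main fibril collagen, changed by -0.57 (SE 0.36, adjusted p = 0.212). Among 9 tested of 11 proteases and their helpers 3 were higher and 0 lower in adult spheres, with a median of 0.21 and 0 lower at an unadjusted p below 0.05 in limma. Mmp3, stromelysin 1, which cleaves several matrix proteoglycans, rose by 2.05 (SE 0.58, adjusted p = 0.0315), Mmp13 was at least 3.09-fold higher (adjusted p = 0.00756) and Pcolce2, an enhancer of procollagen processing, at least 2.67-fold (adjusted p = 0.00772). Mmp13 and Pcolce2 were dim on both embryonic arrays and were tested only through the adult arrays on which they were high, and Pcolce2 lost its call with normexp. Over the 5 other scalings their log2 fold changes went down to 0.86 and 0.76, which are folds below these bounds. Bmp1, which trims the propeptide of biglycan, changed by 0.21 (SE 0.30, adjusted p = 0.562).

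Receptors and ligands that family members bind gave 3 lower and 1 higher among 14 tested of 15, with a median of -0.39, where 36.1% of all genes were lower and 17.5% higher. Igf1r, a receptor for which decorin is a ligand, fell by 2.14 (SE 0.31, adjusted p = 0.00911), Tgfb2 fell by 1.72 (SE 0.36, adjusted p = 0.0162) and Egfr fell by 1.15 (SE 0.34, adjusted p = 0.0367). Egfr was called in 1 of the 5 other scalings. P2rx7, part of the biglycan inflammatory route, was higher in adult spheres by at least 3.85-fold (adjusted p = 0.00737). It too was dim on both embryonic arrays, tested only through the adult ones, and not called with normexp. Over the 5 other scalings its log2 fold change went down to 0.82, a fold below this bound. Of 12 proteoglycans outside the family 7 were tested, with 2 higher and 2 lower. Prg4, lubricin, rose by 4.46 (SE 0.57, adjusted p = 0.00775). It was well above background on 1 of 2 embryonic arrays, so it passed the filter through the adult arrays alone. Srgn, serglycin of blood cells, rose by 2.55 (SE 0.43, adjusted p = 0.0108). Agrn, agrin of basement membranes, fell by 2.55 (SE 0.32, adjusted p = 0.00761) and Cspg4, a proteoglycan of pericytes, fell by 1.42 (SE 0.37, adjusted p = 0.0273), called in 2 of the 5 other scalings.

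The counts of these lists move with the scaling of the arrays. Over 5 other scalings the linker and chondroitin list had 1 to 15 lower and 0 to 3 higher genes, the keratan sulfate list 1 to 5 lower and 0 to 3 higher. The collagen list had 0 to 11 lower and 0 to 5 higher, the proteases 0 to 4 lower and 2 to 5 higher, the receptors and ligands 1 to 9 lower and 0 to 3 higher, and the other proteoglycans 1 to 4 lower and 2 to 3 higher. Chst15, B4galt4, Mmp13, Igf1r, Prg4, Srgn and Agrn were called in the same direction under all 5. All 5 kept the same filter on dim probes, so they do not test its part. Mmp13 and Prg4 passed that filter through the adult arrays alone, on which they were high.

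**Figure D4:**
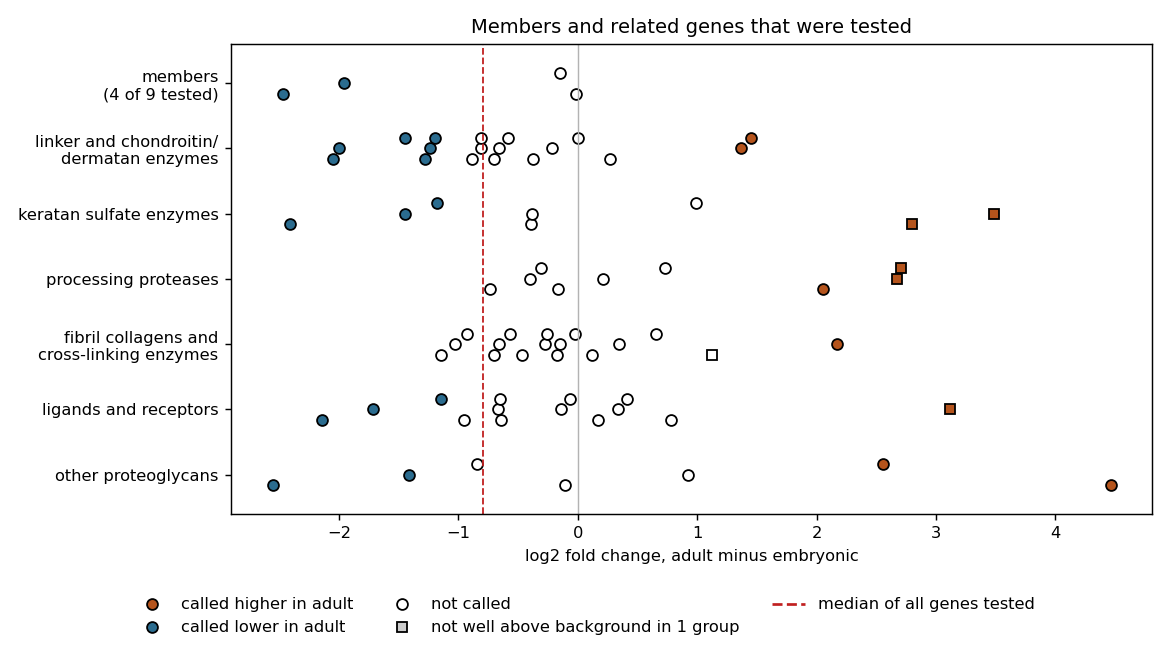
Adult minus embryonic log2 fold change (x axis) of the tested members and of related gene lists (rows). Each point is a gene, orange where called higher and blue where called lower in adult spheres, squares for genes not well above background in 1 group, and the dashed line is the median of all genes tested, -0.79. Lum and Podn lie to the left of that line, and Dcn and Bgn to the right.

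In bulk samples fewer cells of a type and less RNA per cell cannot be told apart. The summed signal of the 10 fibroblast genes was 430 and 464 times the 75th percentile on adult arrays, against 730 and 568 times on embryonic arrays, with none dim on all arrays. Of these 10 genes 1 was higher, 1 lower and 8 not called, with a median log2 fold change of -0.37 that was 0.51 after quantile normalization. Beside these counts and those of the lists below, 36.1% of all genes tested were called lower and 17.5% higher. Pdgfra, a receptor of mesenchymal cells, had 2.14 and 2.54 times the 75th percentile on adult arrays, against 13.3 and 8.99 times on embryonic arrays (log2 fold change -2.23, SE 0.35, adjusted p = 0.00981). Thy1, a fibroblast and T cell surface protein, rose by 1.41 (SE 0.37, adjusted p = 0.0269). The summed signal of 10 epithelial genes was 219 and 129 on adult arrays, against 477 and 828 on embryonic arrays, with 7 lower and 1 higher. Tendon genes, another source of the family, summed to 9.96 and 10.8 on adult arrays, against 29.7 and 29.1 on embryonic arrays, with 1 higher and 1 lower of 4 tested and a median of -0.03. Egr1, an immediate early gene on that list, made up 2.89 and 2.89 of the adult sums, against 14.4 and 21.9 of the embryonic sums, and Tnmd, the gene of tenomodulin, was not well above background on any array. Thbs4, the 1 higher tendon gene, was dim on both embryonic arrays and tested only through the adult arrays on which it was high. Smooth muscle and pericyte genes summed to 21.8 and 17.2 on adult arrays, against 30.7 and 36.9 on embryonic arrays. Of 6 tested 3 were higher and 2 lower, with a median of 0.39. Tagln gave 10.4 and 7.96 of the adult sums, against 23.7 and 25.3 of the embryonic sums. Acta2, Cnn1 and Des ran the other way, with Cnn1 and Des dim on both embryonic arrays and tested only through the adult ones. Adipocyte genes summed to 32.9 and 32.0 on adult arrays, against 86.7 and 39.8 on embryonic arrays. Of 6 tested 2 were higher and 1 lower, with a median of -0.64. Adipoq and Plin1, higher on adult arrays, were likewise dim on both embryonic arrays. Cartilage and bone genes summed to 5.21 and 3.91 on adult arrays, against 3.43 and 6.88 on embryonic arrays, and Col2a1 and Ibsp were dim on all 4. Of 6 tested 3 were higher and 1 lower, and 2 of the list, Sox9 and Bglap, were well above background on all 4 arrays. Col9a1, Col10a1, Runx2 and Comp passed the filter through the adult arrays alone, which by itself favours a higher adult value. Macrophage genes summed to 73.46 and 104.8 on adult arrays, against 106.7 and 103.8 on embryonic arrays, of which Itgam alone gave 64.2 and 92.3, against 74.4 and 81.3. Of 7 macrophage genes tested 4 were lower and 1 higher in adult spheres, with a median of -1.03. Lyz2, lysozyme of macrophages, had 1.503 and 2.033 times the 75th percentile on adult arrays, against 12.1 and 6.24 on embryonic arrays, and C1qa, a complement gene of macrophages, 0.153 and 0.249, against 2.39 and 0.502. Fcgr1, the 1 higher gene, ran the other way with 0.411 and 0.977, against 0.0940 and 0.0789. It was dim on both embryonic arrays and tested only through the adult ones. Ptprc, well above background on adult array 1 alone, had 0.332 and 0.164, against 0.0900 and 0.0806. Endothelial genes summed to 16.9 and 19.1 on adult arrays, against 16.1 and 26.0 on embryonic arrays, of which Kdr gave 10.8 and 14.8, against 15.5 and 25.4. Of 6 endothelial genes tested 4 were higher and 0 lower in adult spheres, also at an unadjusted p below 0.05 in limma, with a median of 2.78. Only Kdr was well above background on all 4 arrays, and it was not called. The others tested passed the filter through the adult arrays alone, on which they were high. With normexp the median was 0.67 and 2 were called higher. T lineage genes summed to 7.81 and 7.60 on adult arrays, against 9.76 and 11.7 on embryonic arrays, with 2 higher and 0 lower of 5 tested. The 2 higher, Cd3g and Ptcra, were dim on both embryonic arrays and tested only through the adult arrays on which they were high. The part of these markers in the Lum and Podn differences was not tested.

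The share of higher and lower calls in the whole table rests on the scaling and on the filter. As reported, 32.6% of the 7316 calls were higher in adult spheres. This share was 72.7% after centring on the tested genes, 14.7% after centring on all probes, 24.6% with normexp and 65.8% with no filter on dim probes. With signal asked on all 4 arrays it was 5.75%. Lum and Podn kept a negative sign in each of these settings in which they were tested, and the within-array difference between Lum and Bgn was -2.41 to -2.49 under normexp, quantile normalization, the deposited table and with outlier spots kept. That pair was not planned for this comparison. The planned pair, Lum minus Dcn, was -2.32 to -2.54 under the same settings.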

How the data were processed

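RNA of 4 thymosphere samples was labelled with Cy3, hybridised to 1-colour Agilent arrays and scanned, and Feature Extraction 10.7.3.1 wrote the deposited intensity values per the file headers. The processed signal used here is background-subtracted per the file headers. The members and gene lists were chosen with earlier results of these data known. Control spots and spots marked as outliers were left out, each processed signal was taken as log2 minus the array's 75th percentile over all non-control spots, and spots of 1 probe were averaged. Probes were named through their RefSeq accession, with 28026 of 55681 matched in the annotation of GRCm38.p6, whose coordinates are printed only for RefSeq promoters. A probe was tested if the 2 arrays of a group, adult or embryonic, both saw it well above background. A gene was read by a probe well above background on all 4 arrays where there was one, then by the brightest. Groups were compared with limma 3.58.1 in R 4.3.3 (lmFit, eBayes), two-sided, with Benjamini-Hochberg adjustment over 13667 genes and a threshold of 0.05. The fit alone was run on simulated data with large planted changes. That simulation held no difference in array scaling and no filter on dim probes, so it does not test those steps. A bound ("at least") uses the mean of the brighter group's kept arrays, each well above background. It sets this against, on each dim array, the lowest spot well above background or the probe's own signal, if higher. A bound holds for the scaling as reported only, and other scalings gave folds below it. An adjusted p beside a bound is that of the limma fit on the measured signals, not of the bound. From the related lists up to 4 called genes per direction were named by size of change, and Col1a1 and Bmp1 were added after their values were seen. Per member, the 3 genes nearest in profile were named.

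The deposited value table holds intensity values of the same arrays on a linear scale. Its columns had medians of 34.4, 35.0, 35.7 and 35.1, and its normalization and centring are not given in the sources used here, so it served as an alternative. Other alternatives were normexp (offset 50, on the median spot signals, as mean spot signals were not used here), quantile normalization, 2 other centrings, 2 other filters, averaging of probes, keeping outlier spots, other priors, a replicate block and leaving out each array. Each member had 1 probe, so no second probe could be compared.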

Additional observations from a re-analysis of the deposited data

How the results depend on the processing

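Lum was lower in adult spheres and called under all 14 settings that keep the 4 arrays, from -3.65 to -1.62, and Podn under 12 of 13, from -3.15 to -0.68, the exception being normexp (-0.68, adjusted p = 0.0821). Podn passed the filter through its embryonic arrays alone, so settings that keep this filter do not test its part. With no filter on dim probes Podn was called at an adjusted p of 0.0473 in limma. Leaving out 1 array gave -2.72 to -2.22 for Lum and -2.21 to -1.72 for Podn, with 0 to 2 members and 0 to 7543 genes called. Both adult arrays are needed for any call, and the lowest number, 0, came without either of them. Genes called were 3373 with normexp, 11527 centred on all probes, 3819 centred on the tested genes and 2719 with no filter, against 7316 as reported. Members called were 1 with normexp, 4 centred on all probes, 4 with the deposited table (2 higher and 2 lower) and 1 when signal was asked on all 4 arrays, where Podn is not tested. The sign of Dcn turned to 0.089 with normexp, 0.83 with quantile normalization, 0.51 centred on the tested genes, 0.92 with the deposited table and 0.50 without embryonic array 1. That of Bgn turned to 0.13 with normexp, 0.86 with quantile normalization, 0.64 centred on the tested genes, 0.82 with the deposited table, 0.16 without adult array 2, 0.24 without embryonic array 1 and 0.13 with the percentile over spots not marked as outliers, a setting chosen after seeing the data. Without 1 array Dcn ran from -0.79 to 0.50 and Bgn from -0.27 to 0.24. The cause was not tested. With the replicate block 7027 genes were called (2405 higher and 4622 lower), 2 members among them, and Lum and Podn kept their calls (adjusted p = 0.0108 and 0.016). The labels do not say that equal numbers share an origin, and the deviations of equally numbered arrays correlated at 0.169 over 9626 genes. Dim signals limit Podn, Ogn, Aspn, Fmod and Omd.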
